A study of Homo sapiens with 6 samples.

Results

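The transcripts described here come from 39 genes of glycolysis and of the response to low oxygen. They comprise 4 glucose and lactate carriers, 15 glycolytic enzymes from hexokinase to pyruvate kinase, 2 lactate dehydrogenase genes, 5 regulatory enzymes of the PDK and PFKFB families, 3 subunits of hypoxia-inducible factor (HIF) and 10 HIF targets outside glycolysis. The genes were taken by symbol from a table of 64252 genes, with earlier results of these data known. Each symbol matched 1 Ensembl ID, and all 39 were among the 18734 genes that passed the low-count filter and were tested. The cells were SK-N-BE(2), a human neuroblastoma line. They were given a control short hairpin RNA (shControl, called control here), or 1 of the hairpins against BCAT1 that the labels name shBCAT1#1 and shBCAT1#2 (hairpin 1 and hairpin 2). Each of the 3 groups held 2 libraries of bulk RNA, and no other genotype or agent is labelled. No label states the oxygen level, the medium or the time after transfection. The labels do not tie the replicates to separate cultures, so a p-value here reflects variation among these libraries alone, and that variation may be technical.

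Glycolysis splits glucose into pyruvate in the cytosol, and lactate dehydrogenase turns pyruvate into lactate, which leaves the cell through monocarboxylate carriers. HIF is a pair of an oxygen-sensitive alpha subunit (HIF1A or EPAS1) and the stable partner ARNT. In normal oxygen the alpha subunits are hydroxylated by prolyl hydroxylases and degraded as proteins, so their activity is set largely at a level that transcript counts do not measure. Many of the carriers and enzymes described here are also known HIF or MYC targets, and MYCN is an oncogene amplified in some tumours of this type.

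BCAT1, a cytosolic transaminase of leucine, isoleucine and valine, was measured first as a check of the labels. Its levels, in counts scaled to library size and written as CPM, were 459 and 475 in control, 55.8 and 55.3 with hairpin 1, and 116 and 111 with hairpin 2. All knockdown libraries lay below both controls, and hairpin 1 libraries lay below hairpin 2 libraries. Total counts ran from 32333416 to 39321388 per library. Sums over markers of adrenergic neuroblastoma were 3608 and 3581 CPM in control, 2925 and 2989 with hairpin 1, and 2740 and 2847 with hairpin 2. MYCN made up most of these sums, with 2251 and 2271 CPM in control, and of the 8 markers tested 4 rose and 4 fell with hairpin 1, and 1 rose and 7 fell with hairpin 2. Fibroblast markers summed to 1824 to 1832 CPM in control, 1114 to 1118 with hairpin 1 and 1334 to 1336 with hairpin 2, and of the 10, 9 were lower and 0 higher with hairpin 1, and 6 lower and 1 higher with hairpin 2. Markers of epithelium summed to 22.1 to 29.4 CPM over the 6 libraries and those of blood and endothelium to 24.1 to 49.4 CPM, with CD3E and HBB at 0 in all of them. The part of these shifts in the results below was not tested. In bulk RNA, fewer cells of a type and less RNA per cell cannot be told apart.

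In control cells the members covered a wide range of levels, compared here as CPM per kilobase of annotated exon. This length merges the exons of all annotated transcripts of a gene and can exceed that of its main transcript. The order, and the isozyme shares given below, depend on that choice. PKM, with 8571 merged bases, had a control mean of 3114 CPM. TPI1 had 1082 CPM over 2700 bases, and LDHB 1154 CPM over 2983. GAPDH stood highest at 2191, followed by ENO1 at 765, TPI1 at 401, LDHB at 387, ALDOA at 377, PKM at 363 and PGAM1 at 309. PFKP reached 148, PGK1 101 and HK1 90.3. HIF1A, at 82.8, stood among the middle ranks of the enzymes, next to DDIT4 at 83.9, and the 2 control libraries of these neighbours overlapped. LDHA, the lactate dehydrogenase subunit most often described in tumours, stood at 12.1, far below LDHB. CA9, a carbonic anhydrase often used as a marker of hypoxia, was the lowest of the 39 at 0.265, and its libraries held only 8 to 19 counts. Besides DDIT4 and HIF1A, the control libraries overlapped for the neighbouring pairs ADM and LDHA, ARNT and SLC2A3, ANGPTL4 and ANKRD37, and PDK1 and EPAS1.

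Some of these genes share exon sequence with a neighbour, and no source states whether counting used strand. The overlap covered 53.5% of the exon length of ALDOA, 41.2% of DDIT4, 38.5% of CA9, 35.2% of ANKRD37, 33.4% of LDHB, 14.2% of GAPDH, 13.2% of HILPDA and 10.1% of ALDOC, so reads of these genes may be split with the neighbour. In DDIT4, CA9, ANKRD37, GAPDH and ALDOC the neighbour lies on the opposite strand. The other members overlapped a neighbour over less than 10% of their length.

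Against the shared control, transcripts of glycolytic enzymes were mostly lower with either hairpin. Among the HIF genes, HIF1A and ADM differed most between the hairpins, while HILPDA, ANGPTL4, ANKRD37 and BNIP3 were lower with both. With hairpin 1, 9 members rose, 22 fell and 8 did not pass the test (edgeR quasi-likelihood test, adjusted p under 0.05 over all genes tested). Over all genes tested, 49.1% passed, 24.2% higher and 24.9% lower, so about as many rose as fell, whereas falls outnumbered rises among the members. The median log2 fold change was -0.30 over the members and -0.01 over all genes. With hairpin 2, 12 members rose, 22 fell and 5 did not pass, where 49.3% of all genes passed, 23.9% higher and 25.4% lower. The count of 12 went to 7, 6 and 7 without control replicate 1, hairpin 2 replicate 1 and hairpin 2 replicate 2, where the rises over all genes went from 4486 to 3608, 3338 and 3597. The median was -0.22 over the members and -0.01 over all genes. The 2 comparisons share the control libraries, so their likeness is not independent evidence. Log2 fold changes also varied with base composition across genes, as a description: Spearman's rho with GC content was -0.25 for hairpin 1 and -0.38 for hairpin 2 over 17459 genes. The members' median GC content was 52.8%, against 48.7% in genes tested. With a correction of the counts for GC content and exon length, hairpin 1 gave 10 members higher and 22 lower, against 25.6% and 24.5% of all genes, with a median of -0.23. An uncorrected fit of the same 17459 genes also gave 10 and 22. With hairpin 2 the corrected counts were 6 higher and 20 lower, against 22.0% and 24.8% of all genes, with a median of -0.16.

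**Figure D1:**
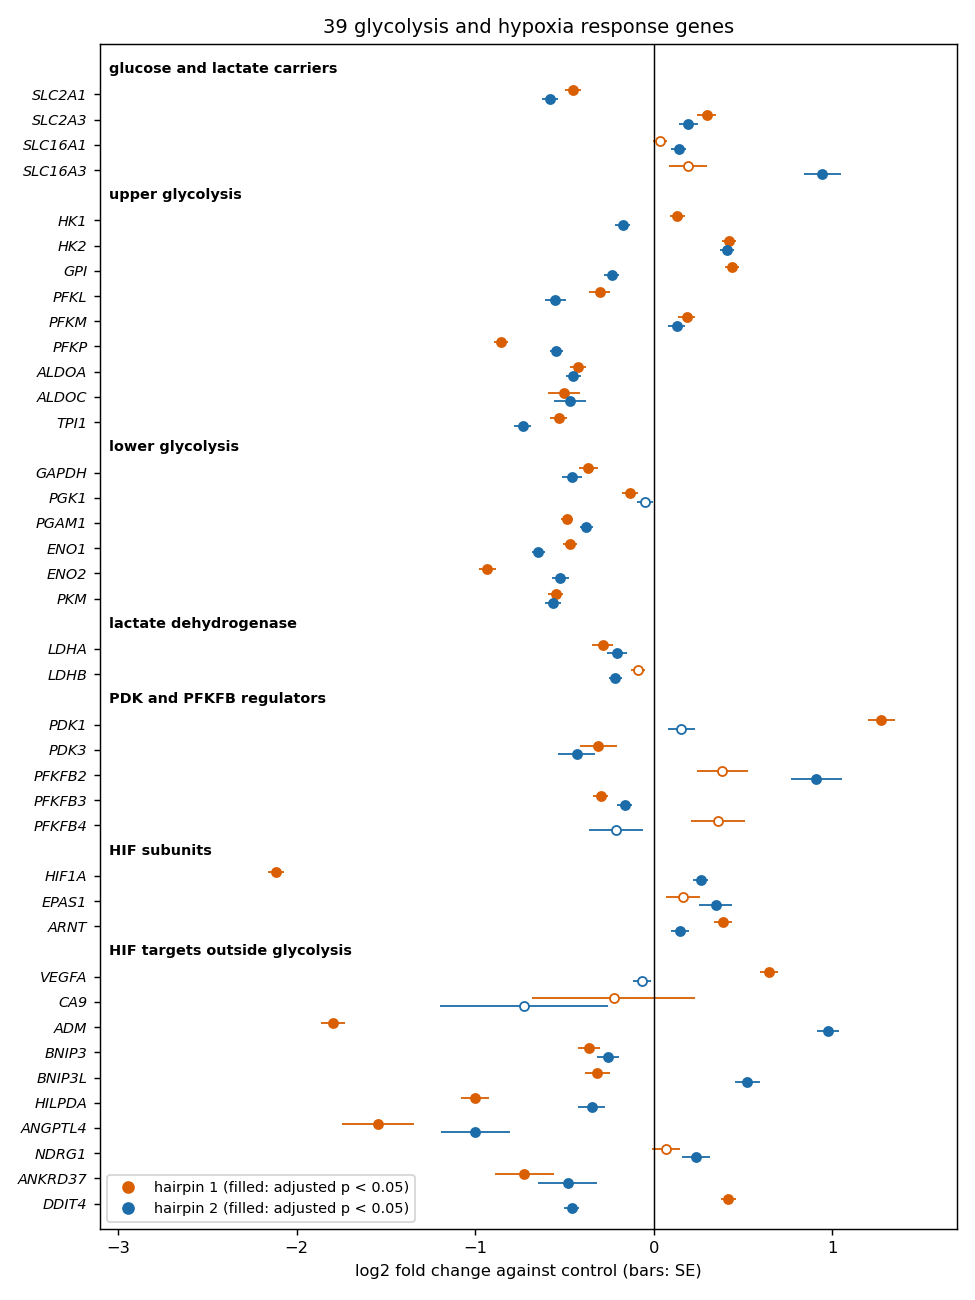
Log2 fold change against control (horizontal axis, bars show the SE) for each of the 39 genes, ordered by role, with hairpin 1 and hairpin 2 side by side. Most enzymes lie left of 0 with either hairpin, and HIF1A (-2.11 and 0.26) and ADM (-1.80 and 0.97) lie on opposite sides.

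Glucose and lactate carriers did not move as one. SLC2A1, the widely expressed basal glucose carrier GLUT1, was at 91.3 and 91.2 CPM in control, 68.1 and 65.3 with hairpin 1 and 60.1 and 61.7 with hairpin 2. Every knockdown library lay below both controls. SLC2A1 fell by 0.45 on the log2 scale with hairpin 1 (SE 0.04, edgeR adjusted p = 5.8e-05) and by 0.58 with hairpin 2 (SE 0.04, adjusted p = 1.9e-05). SLC16A3, the lactate exporter MCT4, was at 7.06 and 7.97 CPM in control, 8.61 and 8.57 with hairpin 1 and 14.4 and 14.5 with hairpin 2. The hairpin 2 libraries lay far above the others, and those of hairpin 1 just above control. SLC16A3 rose by 0.94 on the log2 scale with hairpin 2 (SE 0.10, edgeR adjusted p = 1.2e-04) and was 0.75 above hairpin 1 (adjusted p = 4.7e-04). The difference with hairpin 1 against control was 0.19 (adjusted p = 0.17). SLC2A3, the high-affinity neuronal glucose carrier GLUT3, rose by 0.30 with hairpin 1 and 0.19 with hairpin 2 (edgeR adjusted p = 0.0017 and 0.015). SLC16A1, the carrier MCT1, differed by 0.03 with hairpin 1 (adjusted p = 0.53) and rose by 0.14 with hairpin 2 (edgeR adjusted p = 0.022). Correction for GC content and length ended the hairpin 2 calls of SLC2A3 (0.06, adjusted p = 0.42) and of SLC16A1 (-0.03, adjusted p = 0.51). The SLC2A3 call with hairpin 2 was also lost without control replicate 2 or hairpin 2 replicate 1, at 0.15 to 0.17, and that of SLC16A1 without control replicate 1 or either hairpin 2 library, at 0.10 to 0.15.

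**Figure D2:**
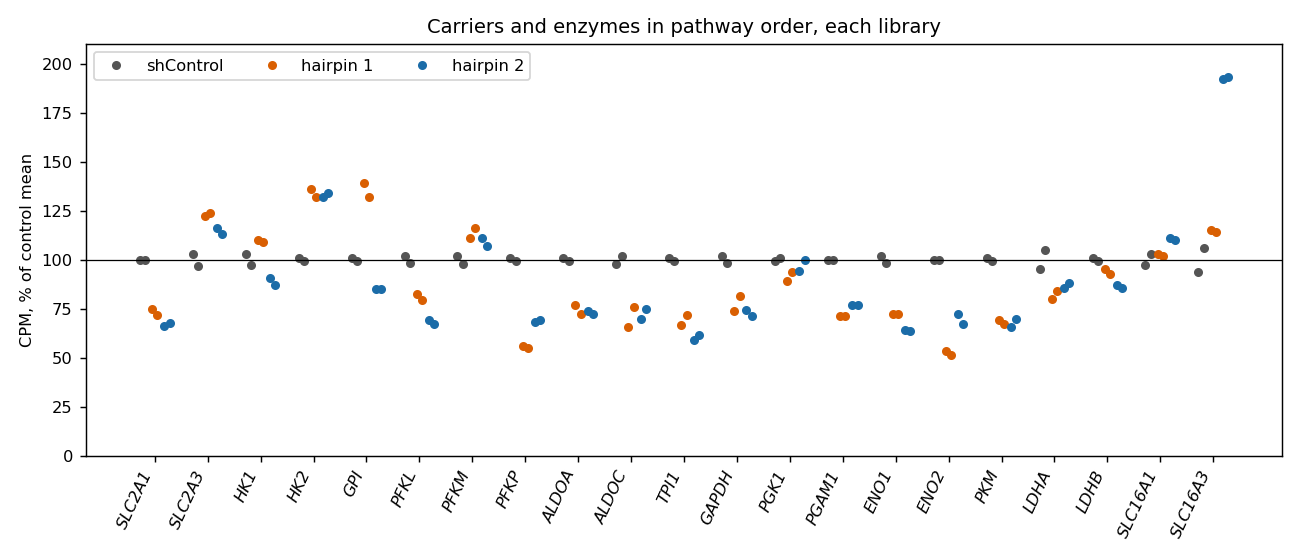
Level of each carrier and enzyme transcript in every library (points, vertical axis in percent of the control mean CPM), in pathway order from glucose entry to lactate exit. Every knockdown point from ALDOA to LDHB lies at or below 100%, and HK2 lies above it with both hairpins.

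The upper steps of glycolysis, from hexokinase to triose phosphate isomerase, held rises and falls. Of 9 genes, 4 rose and 5 fell with hairpin 1, and 2 rose and 7 fell with hairpin 2. HK2, the inducible hexokinase that traps glucose as its 6-phosphate, rose by 0.42 and 0.41 (edgeR adjusted p = 5.0e-05 and 6.5e-05). HK1, the constitutive hexokinase, rose by 0.13 with hairpin 1 and fell by 0.17 with hairpin 2 (edgeR adjusted p = 0.032 and 0.0093). Both HK1 calls were lost when single libraries were left out. With hairpin 1 these were control replicate 2, either hairpin 1 library or hairpin 2 replicate 1 (0.09 to 0.15), and with hairpin 2 they were control replicate 1 or hairpin 2 replicate 2 (-0.14). GPI, which converts glucose 6-phosphate into fructose 6-phosphate, was at 185 and 183 CPM in control, 256 and 243 with hairpin 1, and 156 and 156 with hairpin 2. The control libraries lay between those of the hairpins, without overlap. GPI rose by 0.44 with hairpin 1 and fell by 0.24 with hairpin 2 (edgeR adjusted p = 4.6e-05 and 0.0016).

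Phosphofructokinase, the committed step of glycolysis, is encoded by PFKL, PFKM and PFKP. PFKP (ENSG00000067057, chromosome 10, 3066333 to 3137712, plus strand, hg38), the platelet-type isozyme, was at 720 and 710 CPM in control, 399 and 392 with hairpin 1 and 486 and 495 with hairpin 2. All knockdown libraries lay below both controls, those of hairpin 1 lowest. It fell by 0.86 with hairpin 1 (SE 0.04, edgeR adjusted p = 1.0e-06) and by 0.55 with hairpin 2 (SE 0.04, adjusted p = 1.2e-05), and hairpin 2 was 0.31 above hairpin 1 (adjusted p = 2.1e-04). With the GC and length correction, PFKP fell by 0.33 with hairpin 2 (adjusted p = 4.5e-05). PFKL, the liver-type isozyme, was at 51.3 and 49.5 CPM in control, 41.5 and 40.1 with hairpin 1 and 34.9 and 33.9 with hairpin 2. Its groups did not overlap, and it fell by 0.30 and 0.55 (edgeR adjusted p = 0.0022 and 8.6e-05). PFKM, the muscle-type isozyme, rose by 0.18 and 0.13 (edgeR adjusted p = 0.0096 and 0.046), calls lost without control replicate 2 (0.15) for hairpin 1, and on leaving out any 1 control or hairpin 2 library (0.09 to 0.16) or with the GC correction (0.10) for hairpin 2. As a share of the summed CPM per kilobase of the 3 genes, PFKM made up 12.2% and 11.8% in control, 21.1% and 22.2% with hairpin 1, and 18.3% and 17.5% with hairpin 2. The share of PFKP went from 84.6% and 84.9% to 74.7% and 73.7%, and to 78.7% and 79.6%. PFKP thus remained the most abundant of the 3 in every library.

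**Figure D3:**
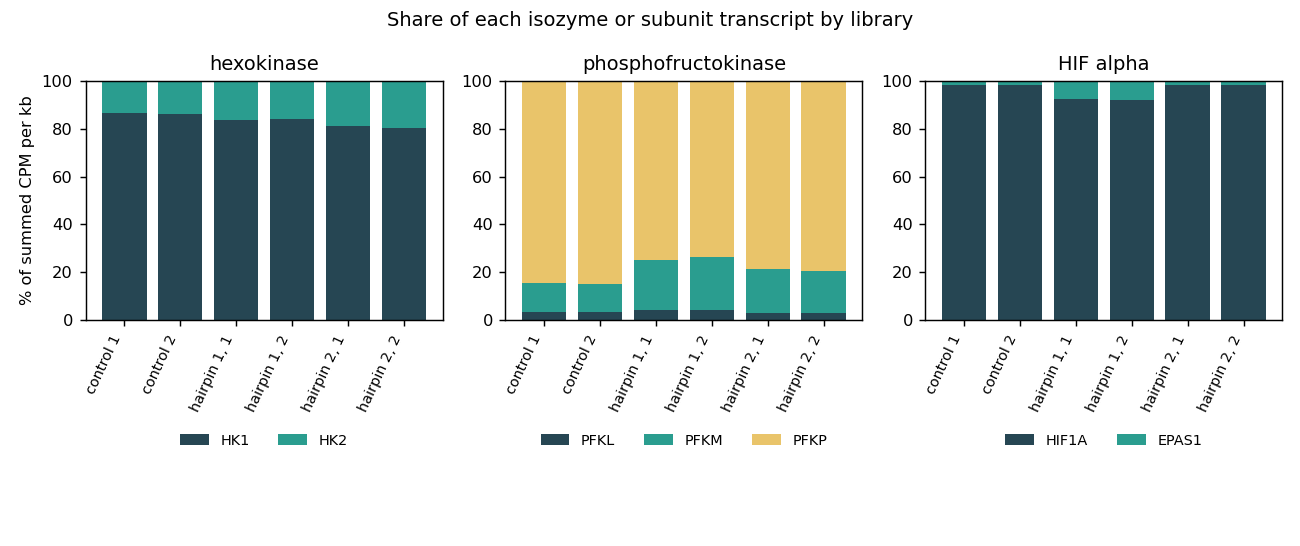
Share of each isozyme or subunit transcript in the summed CPM per kilobase of its step (stacked bars, percent), by library. The PFKM share was 11.8% to 12.2% in control and 17.5% to 22.2% in the knockdown libraries, and the EPAS1 share was above 7% only in the hairpin 1 libraries.

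Of the later upper-step enzymes, TPI1, which interconverts the triose phosphates, was at 1089 and 1074 CPM in control, 720 and 776 with hairpin 1 and 636 and 666 with hairpin 2. The 3 groups did not overlap. TPI1 fell by 0.53 and 0.73 (SE 0.05 each, edgeR adjusted p = 3.4e-05 and 9.6e-06). ALDOC, the brain-type aldolase, was at 30.9 and 32.5 CPM in control, 20.8 and 24.0 with hairpin 1 and 22.2 and 23.7 with hairpin 2, below control in every knockdown library. It fell by 0.50 and 0.47 (edgeR adjusted p = 0.0018 and 0.0025). ALDOA, the main aldolase, fell by 0.42 and 0.45 (edgeR adjusted p = 6.2e-05 and 5.2e-05). These enzymes changed less after the GC and length correction: TPI1 by -0.28 and -0.39, ALDOA by -0.28 and -0.25, and ALDOC by -0.28 and -0.16, of which the last was no longer called (adjusted p = 0.15).

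At the lower steps, from glyceraldehyde phosphate to pyruvate, 6 of 6 genes fell with hairpin 1 and 5 of 6 with hairpin 2, where 24.9% and 25.4% of all genes fell. The medians were -0.48 and -0.49, and -0.35 and -0.28 after the GC and length correction, with the same counts of falls. ENO2, the neuronal enolase, was at 103 and 103 CPM in control, 55.1 and 53.1 with hairpin 1 and 74.4 and 69.4 with hairpin 2. Knockdown libraries were below both controls, and hairpin 1 was lowest. ENO2 fell by 0.93 with hairpin 1 (SE 0.05, edgeR adjusted p = 2.4e-06) and by 0.52 with hairpin 2 (SE 0.05, adjusted p = 4.8e-05), and hairpin 2 was 0.41 above hairpin 1 (adjusted p = 2.1e-04). ENO1, the ubiquitous enolase, was at 4113 and 3957 CPM in control, 2912 and 2917 with hairpin 1 and 2591 and 2567 with hairpin 2. Here hairpin 2 was lower, with falls of 0.47 and 0.65 (SE 0.04 each, edgeR adjusted p = 1.9e-05 and 6.3e-06). PKM, the pyruvate kinase gene that makes the last ATP of the pathway, was at 3142 and 3087 CPM in control, 2161 and 2093 with hairpin 1, and 2041 and 2173 with hairpin 2. The libraries of both hairpins overlapped, below control, with falls of 0.55 and 0.56 (SE 0.04 each, edgeR adjusted p = 1.7e-05 and 2.0e-05).

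GAPDH, often used as a reference transcript, fell by 0.37 with hairpin 1 and 0.46 with hairpin 2 (edgeR adjusted p = 5.7e-04 and 1.7e-04), from a control level of 6640 and 6423 CPM to 4660 to 5325 CPM in the knockdown libraries. PGAM1, the phosphoglycerate mutase, fell by 0.49 and 0.38 (edgeR adjusted p = 1.2e-05 and 5.4e-05). PGK1, which makes the first ATP of the pathway, was the exception: it fell by 0.13 with hairpin 1 (adjusted p = 0.036) and differed by -0.05 with hairpin 2 (adjusted p = 0.42). The PGK1 call with hairpin 1 was lost without either control library or hairpin 1 replicate 1 (-0.15 to -0.10). The GC and length correction moved these genes in different ways. GAPDH was then at -0.12 and -0.11 (adjusted p = 0.043 and 0.058), PGAM1 at -0.29 and -0.13, ENO2 with hairpin 2 at -0.33, and PGK1 at -0.25 and -0.23 (adjusted p = 8.6e-04 and 0.0016). ENO1 (-0.41 and -0.56) and PKM (-0.59 and -0.59) kept nearly their full size.

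Summed over the 15 enzymes, glycolytic transcripts took 19737 and 19218 CPM in control, 14472 and 14924 with hairpin 1 and 13908 and 13846 with hairpin 2. Without GAPDH the sums were 13097 and 12795, then 9669 and 9599, then 9061 and 9186 CPM. Every knockdown library was below both controls. Of the 15 genes taken singly, 4 rose and 11 fell with hairpin 1 after the GC and length correction, and 1 rose and 11 fell with hairpin 2, with medians of -0.28 and -0.25 in place of -0.43 and -0.47 for the same genes uncorrected.

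Before correction, lactate dehydrogenase transcripts were lower by at most 0.29 on the log2 scale. LDHB, whose subunit favours the use of lactate, fell by 0.22 with hairpin 2 (edgeR adjusted p = 0.0015) and differed by -0.09 with hairpin 1 (adjusted p = 0.08). LDHA, whose subunit favours its formation, fell by 0.29 and 0.21 (edgeR adjusted p = 0.0034 and 0.017), and its share of the summed CPM per kilobase of both genes stayed between 2.56% and 3.20% in the 6 libraries. The LDHA call with hairpin 2 was lost without control replicate 2 or either hairpin 2 library (-0.22 to -0.14), and its corrected value was -0.40 (adjusted p = 1.0e-04).

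Among the regulatory enzymes, PDK1 had the largest change with hairpin 1 and PFKFB2 with hairpin 2. PDK1 is a kinase that switches off pyruvate dehydrogenase and so keeps pyruvate out of the mitochondrial cycle, and it is a known HIF target. PDK1 was at 21.1 and 23.6 CPM in control, 53.7 and 54.5 with hairpin 1, and 25.5 and 24.2 with hairpin 2. The hairpin 1 libraries stood apart, while those of hairpin 2 lay just above control. PDK1 rose by 1.27 with hairpin 1 (SE 0.07, edgeR adjusted p = 3.7e-06), against a difference of 0.15 with hairpin 2 (adjusted p = 0.12). Corrected for GC content and length, the hairpin 2 value turned to -0.35 and was called (adjusted p = 0.0012). The levels of hairpin 2 were below those of hairpin 1 by 1.12 (SE 0.07, adjusted p = 6.7e-06).

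PFKFB enzymes make and break fructose 2,6-bisphosphate, the strongest activator of phosphofructokinase. PFKFB2 was at 3.62 and 3.43 CPM in control, 4.59 and 4.62 with hairpin 1 and 6.09 and 7.17 with hairpin 2. The 3 groups did not overlap, with a rise of 0.91 for hairpin 2 (SE 0.14, edgeR adjusted p = 8.4e-04) and a difference of 0.38 for hairpin 1 (adjusted p = 0.055). PFKFB4 was at 4.28 and 3.81 CPM in control, 5.60 and 4.78 with hairpin 1 and 3.52 and 3.47 with hairpin 2. Against control it passed with neither hairpin (0.36 and -0.21, adjusted p = 0.08 and 0.29), yet hairpin 2 was below hairpin 1 by 0.57 (SE 0.15, edgeR adjusted p = 0.014). PFKFB3, the isozyme with the strongest kinase activity, fell by 0.30 and 0.16 (edgeR adjusted p = 3.3e-04 and 0.0085). PDK3 fell by 0.31 and 0.43 (edgeR adjusted p = 0.035 and 0.0081), and its hairpin 1 call was lost on leaving out any 1 library other than hairpin 1 replicate 2 (-0.34 to -0.21). PFKFB3 with hairpin 2 was lost without hairpin 2 replicate 2 (-0.15) and with the correction (-0.05), which also took PFKFB2 with hairpin 2 to 0.58 and PFKFB4 with hairpin 1 to 0.44 (adjusted p = 0.03). Between the hairpins, the PFKFB2 call was lost without either hairpin 1 library or hairpin 2 replicate 2 (0.41 to 0.53), and the PFKFB4 call without hairpin 1 replicate 1 or either hairpin 2 library (-0.59 to -0.45).

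HIF1A differed more between the hairpins than any other member except ADM. HIF1A (ENSG00000100644, chromosome 14, 61695513 to 61748259, plus strand, hg38) encodes the oxygen-labile HIF-1 alpha subunit. It was at 415 and 438 CPM in control, 98.9 and 98.2 with hairpin 1, and 517 and 507 with hairpin 2. Hairpin 1 libraries lay far below control and hairpin 2 libraries above it. HIF1A fell by 2.11 on the log2 scale with hairpin 1, a 4.33-fold lower level (SE 0.04, edgeR adjusted p = 7.1e-08), and rose by 0.26 with hairpin 2 (SE 0.04, adjusted p = 8.6e-04). The GC and length correction ended the call with hairpin 2 (-0.03, adjusted p = 0.54). Hairpin 2 exceeded hairpin 1 by 2.38 (SE 0.04, edgeR adjusted p = 8.5e-08), while BCAT1 fell by 3.07 with hairpin 1 and by 2.04 with hairpin 2.

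EPAS1, which encodes HIF-2 alpha, was at 10.2 and 10.5 CPM in control, 11.3 and 11.9 with hairpin 1 and 13.0 and 13.3 with hairpin 2. It stayed a small part of the alpha subunit transcripts: as a share of the summed CPM per kilobase of HIF1A and EPAS1 it made up 1.66% to 1.71% in control, 7.47% to 7.85% with hairpin 1 and 1.74% to 1.82% with hairpin 2. EPAS1 rose by 0.35 with hairpin 2 (edgeR adjusted p = 0.014), a call lost without control replicate 1 or either hairpin 2 library (0.33 to 0.36), and differed by 0.16 with hairpin 1 (adjusted p = 0.18). ARNT, their shared partner, was at 52.9 and 53.2 CPM in control, 67.8 and 70.8 with hairpin 1 and 60.03 and 57.4 with hairpin 2, highest in the hairpin 1 libraries. ARNT rose by 0.39 with hairpin 1 (edgeR adjusted p = 2.9e-04) and by 0.15 with hairpin 2 (adjusted p = 0.038). The hairpin 2 call for ARNT was lost on leaving out any 1 of the 6 libraries (0.11 to 0.18) and with the GC correction (0.03, adjusted p = 0.62).

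**Figure D4:**
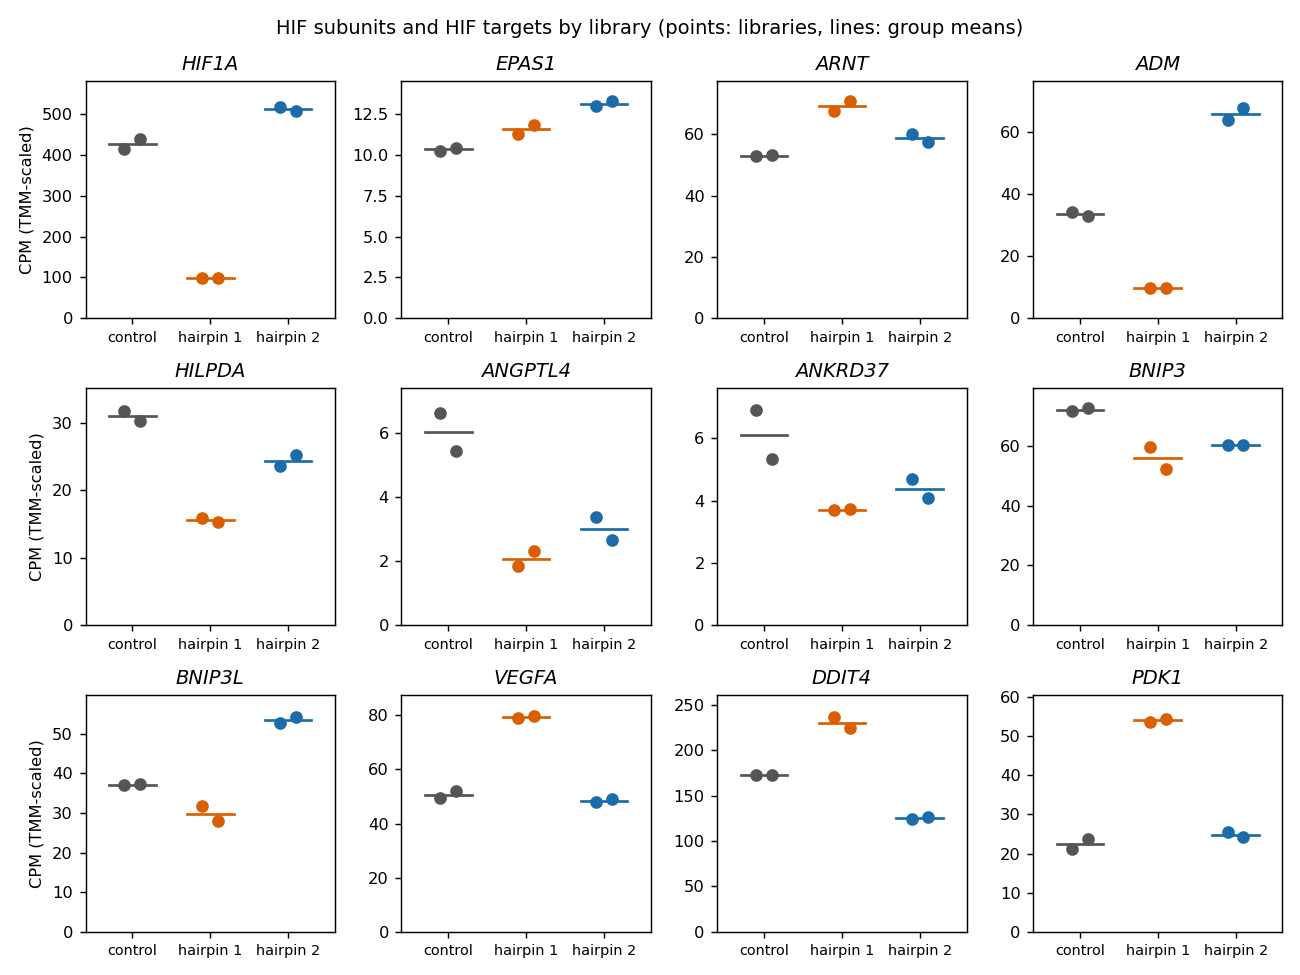
Level in CPM (vertical axis, TMM-scaled, from 0) of HIF subunits and HIF targets in each library (points, with lines at group means), by group. HIF1A and ADM are low with hairpin 1 and above control with hairpin 2, while HILPDA and ANGPTL4 are below control with both hairpins.

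The HIF targets outside glycolysis did not follow one direction. With hairpin 1, 2 of 10 rose, 6 fell and 2 did not pass, with a median of -0.34. With hairpin 2, 3 rose, 5 fell and 2 did not pass, with a median of -0.30. Over all genes, 24.2% rose and 24.9% fell with hairpin 1, and 23.9% and 25.4% with hairpin 2. After the GC and length correction, 2 targets rose and 4 fell with hairpin 2, with a median of -0.16. Summed levels were 429 and 427 CPM in control, 457 and 435 with hairpin 1 and 403 and 412 with hairpin 2. DDIT4 held the largest part of these sums, with 172 and 173 CPM in control, 237 and 225 with hairpin 1 and 124 and 127 with hairpin 2. HIF binds DNA at a short core of A or G followed by CGTG. The promoters of 4 targets are shown because these genes differed in pattern: ADM and DDIT4 moved in opposite directions between the hairpins, and BNIP3 and ANKRD37 fell with both. The sequences run 5′ to 3′ along the gene, from 250 bases before to 50 after the start, from RefSeq on GRCh38.p14, and capitals mark ACGTG or GCGTG on either strand.
ADM, chr11:10304823-10305122, plus strand: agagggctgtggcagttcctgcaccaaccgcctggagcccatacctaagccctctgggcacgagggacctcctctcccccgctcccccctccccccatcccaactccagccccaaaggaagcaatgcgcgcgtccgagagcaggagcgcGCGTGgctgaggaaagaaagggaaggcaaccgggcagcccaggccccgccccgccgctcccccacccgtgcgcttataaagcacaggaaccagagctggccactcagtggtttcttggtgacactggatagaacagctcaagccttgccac
BNIP3, chr10:131981874-131982173, minus strand: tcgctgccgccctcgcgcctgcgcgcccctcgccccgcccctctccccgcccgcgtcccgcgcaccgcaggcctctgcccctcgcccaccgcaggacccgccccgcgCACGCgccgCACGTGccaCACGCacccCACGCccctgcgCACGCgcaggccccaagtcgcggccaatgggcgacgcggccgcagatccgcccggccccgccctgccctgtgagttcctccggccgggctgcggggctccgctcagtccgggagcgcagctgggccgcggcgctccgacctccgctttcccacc
ANKRD37, chr4:185396591-185396890, plus strand: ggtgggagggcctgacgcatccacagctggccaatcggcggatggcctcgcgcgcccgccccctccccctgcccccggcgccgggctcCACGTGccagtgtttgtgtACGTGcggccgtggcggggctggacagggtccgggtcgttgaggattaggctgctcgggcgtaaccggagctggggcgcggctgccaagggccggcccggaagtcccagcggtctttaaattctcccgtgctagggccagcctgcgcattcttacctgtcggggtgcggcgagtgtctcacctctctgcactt
DDIT4, chr10:72273674-72273973, plus strand: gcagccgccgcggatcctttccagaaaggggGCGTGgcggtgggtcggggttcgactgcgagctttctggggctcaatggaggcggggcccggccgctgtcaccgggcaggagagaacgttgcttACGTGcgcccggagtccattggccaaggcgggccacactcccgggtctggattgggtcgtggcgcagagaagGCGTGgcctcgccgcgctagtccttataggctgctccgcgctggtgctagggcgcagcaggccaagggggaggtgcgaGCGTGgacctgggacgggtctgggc
ADM held 1 such core, DDIT4 4, ANKRD37 3 and BNIP3 6, where the overlapping reads of CACGTG on both strands count as 2. Of the 32 members with a promoter in the table, 24 held a core, against 48.4% of 27305 promoters of the same length. The longer sequence CACGTG, which is also the E-box bound by MYC, stood in 5 of the 32 and in 7.43% of all promoters. A match in this window is a description of sequence and not evidence of binding. SLC2A3, SLC16A1, PFKFB2, VEGFA, BNIP3L, HILPDA and NDRG1 were not in the table.

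ADM (ENSG00000148926, chromosome 11, 10304680 to 10307397, plus strand, hg38), which encodes the vasodilator peptide adrenomedullin, was at 34.2 and 33.0 CPM in control, 9.72 and 9.61 with hairpin 1 and 64.0 and 67.9 with hairpin 2. The counts behind these were 1292 and 1222, then 377 and 312, then 2585 and 2642. ADM fell by 1.80 with hairpin 1 (SE 0.07, edgeR adjusted p = 6.4e-07) and rose by 0.97 with hairpin 2 (SE 0.06, adjusted p = 8.3e-06). Hairpin 2 exceeded hairpin 1 by 2.77 for ADM (SE 0.07, edgeR adjusted p = 1.2e-07), the largest such difference of the 39 genes. Between the hairpins, ADM thus moved in the same order as HIF1A. This likeness is a description over 3 groups, and its cause was not tested.

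DDIT4, which encodes the mTORC1 inhibitor REDD1, was at 172 and 173 CPM in control, 237 and 225 with hairpin 1, and 124 and 127 with hairpin 2. Its groups were fully apart in the order opposite to HIF1A. DDIT4 rose by 0.42 with hairpin 1 and fell by 0.46 with hairpin 2 (SE 0.04 each, edgeR adjusted p = 6.3e-05 and 4.7e-05). With the GC and length correction the rise was 0.73 and the hairpin 2 call was lost (-0.07, adjusted p = 0.23). VEGFA, the angiogenic growth factor, was at 49.4 and 52.0 CPM in control, 78.9 and 79.6 with hairpin 1, and 48.0 and 48.9 with hairpin 2. The hairpin 1 libraries lay far above the others, and those of hairpin 2 just below control. VEGFA rose by 0.64 with hairpin 1 (SE 0.05, edgeR adjusted p = 1.5e-05). The difference with hairpin 2 was -0.07 (adjusted p = 0.31), and -0.17 after correction (adjusted p = 0.018).

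HILPDA, a lipid droplet protein that inhibits lipolysis, was at 31.7 and 30.3 CPM in control, 15.8 and 15.2 with hairpin 1, and 23.5 and 25.2 with hairpin 2. The groups did not overlap, with hairpin 1 lowest. HILPDA fell by 1.00 and 0.35 (SE 0.08 each, edgeR adjusted p = 1.6e-05 and 0.0051), and the hairpin 2 call was lost with the correction (-0.15, adjusted p = 0.097). ANGPTL4, a secreted inhibitor of lipoprotein lipase, was at 6.61 and 5.43 CPM in control, 1.83 and 2.31 with hairpin 1 and 3.37 and 2.65 with hairpin 2. All knockdown libraries were below control, with falls of 1.54 and 1.00 (SE 0.20 and 0.19, edgeR adjusted p = 2.9e-04 and 0.0027). The corrected value for hairpin 2 was -0.58 (adjusted p = 0.02).

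BNIP3L, a receptor for mitochondrial autophagy also called NIX, was at 37.1 and 37.3 CPM in control, 31.8 and 27.9 with hairpin 1 and 52.7 and 54.1 with hairpin 2. It fell by 0.32 with hairpin 1 (edgeR adjusted p = 0.0063) and rose by 0.52 with hairpin 2 (adjusted p = 3.6e-04), a rise of 0.30 after correction. Its relative BNIP3 fell by 0.36 and 0.26 (edgeR adjusted p = 0.0016 and 0.0095), and the hairpin 2 call was lost without hairpin 2 replicate 2 (-0.25). ANKRD37 was at 6.90 and 5.35 CPM in control, 3.69 and 3.73 with hairpin 1, and 4.68 and 4.09 with hairpin 2, below both controls in each knockdown library. It fell by 0.72 and 0.48 (edgeR adjusted p = 0.0067 and 0.038). The hairpin 1 call was lost without control replicate 1 (-0.53, adjusted p = 0.051). That of hairpin 2 was lost on leaving out any 1 library other than control replicate 2 (-0.59 to -0.29).

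Of the remaining targets, CA9 differed by -0.22 and -0.73 (edgeR adjusted p = 0.72 and 0.24), and at 8 to 19 counts its change could not be determined. NDRG1, a differentiation-linked protein induced by hypoxia and repressed by MYCN, differed by 0.07 with hairpin 1 (adjusted p = 0.5) and rose by 0.24 with hairpin 2 (edgeR adjusted p = 0.033). The NDRG1 call was lost on leaving out any 1 control or hairpin 2 library (0.20 to 0.27) and with the correction (0.15, adjusted p = 0.11).

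The test of hairpin 2 against hairpin 1 addressed which of these changes differed between the hairpins. BCAT1 itself was 1.03 higher with hairpin 2 (SE 0.04, edgeR adjusted p = 7.3e-07). The hairpin used and the depth of knockdown therefore cannot be told apart here. Of the 39 genes, 10 were higher and 12 lower with hairpin 2, and 17 did not pass, against 46.2% of all genes passing, 22.9% higher and 23.3% lower. By role, 3 of 10 HIF targets were higher and 2 lower, and of the 6 lower-step enzymes 2 were higher and 1 lower. The larger differences were in HIF1A, ADM, PDK1 (-1.12), DDIT4 (-0.88), BNIP3L (0.84), SLC16A3 (0.75), VEGFA (-0.71), GPI (-0.67) and HILPDA (0.65). Among the enzymes of the main glycolytic line, ALDOA, GAPDH, PGK1 and PKM differed by -0.09 to 0.09 between the hairpins and did not pass. Of the 22 genes called, 6 were also called in opposite directions against the shared control: HK1, GPI, HIF1A, ADM, BNIP3L and DDIT4. Over all genes tested, 5.73% met the same condition. With the GC and length correction 6 members met it, against 7.95% of all genes, but PDK1 and VEGFA then stood in place of HIF1A and DDIT4. Small differences between the hairpins depended on single libraries. The call of PGAM1 (0.11) was lost on leaving out any 1 hairpin library (0.11 each time), as was that of PFKFB3 (0.13, then 0.12 to 0.15). That of SLC2A1 (-0.13) was lost on leaving out any 1 library other than control replicate 1 (-0.17 to -0.10), and with the GC correction (-0.08). PFKL (-0.25) was lost without hairpin 1 replicate 1 or hairpin 2 replicate 2 (-0.22), TPI1 (-0.20) without hairpin 2 replicate 1 (-0.17), and LDHB (-0.13) without hairpin 1 replicate 1 or either hairpin 2 library (-0.14 to -0.11). With the correction TPI1 was at -0.11, and SLC2A3 (-0.14) and ANGPTL4 (0.63) were called as well (adjusted p = 0.048 and 0.019).

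**Figure D5:**
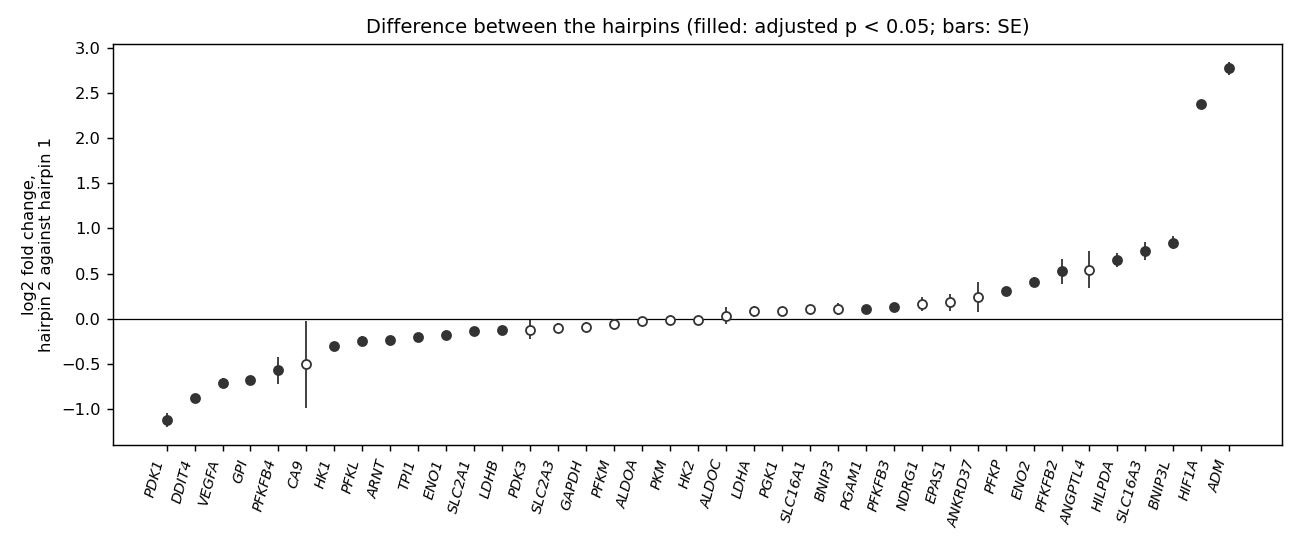
Log2 fold change of hairpin 2 against hairpin 1 (vertical axis, bars show the SE) for the 39 genes in rank order. ADM (2.77) and HIF1A (2.38) stand above the rest, and PDK1 (-1.12) and DDIT4 (-0.88) are the lowest.

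Other genes of these pathways are given by list, beside 24.2% of all genes higher and 24.9% lower with hairpin 1, and 23.9% and 25.4% with hairpin 2. Values for these lists, and for those in the next paragraph, are not corrected for GC content and length. They were also not checked by leaving out libraries. Of 14 genes of oxygen sensing and HIF regulation, 5 rose and 6 fell with hairpin 1, and 6 rose and 5 fell with hairpin 2. CITED2, an inhibitor of HIF that competes for the coactivators CREBBP and EP300, rose by 1.29 with hairpin 1, CREBBP by 0.93 and EP300 by 0.68 (edgeR adjusted p = 2.6e-06, 2.7e-06 and 2.4e-05). With hairpin 2, CREBBP rose by 0.59, the prolyl hydroxylase EGLN3 by 0.54, and ARNT2, the neuronal relative of ARNT, fell by 0.76. CITED2 and EP300 also rose with hairpin 2, by 0.60 and 0.54 (edgeR adjusted p = 1.5e-04 and 9.5e-05). Of 29 further HIF targets, 10 rose and 6 fell with hairpin 1, and 7 rose and 7 fell with hairpin 2, the latter close to the shares over all genes. IGFBP3, which binds insulin-like growth factors, rose by 1.42 with hairpin 1, and HMOX1, the haem oxygenase, fell by 0.50 with hairpin 1 and rose by 0.76 with hairpin 2. IGFBP3 differed by -0.02 with hairpin 2 (edgeR adjusted p = 0.89). FAM162A fell by 1.74 with hairpin 2 and differed by -0.16 with hairpin 1 (edgeR adjusted p = 2.9e-06 and 0.12). PLOD1, a collagen lysyl hydroxylase, fell by 1.25 with hairpin 2 and by 0.41 with hairpin 1.

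Genes that draw on glycolytic intermediates are set against the same shares of all genes. In the pentose phosphate pathway, which makes NADPH and ribose, 4 of 7 rose and 2 fell with hairpin 1, and 1 rose and 5 fell with hairpin 2. TALDO1, the transaldolase of the pathway, fell by 0.80 and 0.31 and PGLS by 0.58 and 0.53. Of 13 tested genes of pyruvate use, 7 rose and 4 fell with hairpin 1, and 4 rose and 4 fell with hairpin 2, the latter near the shares over all genes. BSG, the chaperone of the lactate carriers, fell by 0.61 and 0.33, and PDHX, a subunit of pyruvate dehydrogenase, rose by 0.50 and 0.44. Of 13 tested isozymes and branch enzymes, 3 rose and 7 fell with hairpin 1, and 2 rose and 3 fell with hairpin 2. GPD2, the mitochondrial glycerol phosphate dehydrogenase, rose by 0.96 and 0.41. TXNIP, which limits glucose uptake and is a target of the glucose sensor MondoA, rose by 1.45 with hairpin 1 and differed by -0.10 with hairpin 2 (edgeR adjusted p = 7.2e-07 and 0.2). Its relative ARRDC4 rose by 0.55 and 1.47 (edgeR adjusted p = 8.1e-04 and 5.7e-06).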

How the data were processed

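Bulk RNA was sequenced in 6 libraries. The deposited table holds whole-number counts per Ensembl gene, made by the authors and not normalized. HISAT2 2.2.0, StringTie and hg38 are named, per the submitters' processing notes. Not given in the sources used here: StringTie version, annotation release, counting options, strand. All 6 columns were matched by name to sample labels. A table of Ensembl IDs gave symbols and held 56105 of 64252 IDs, and GENCODE on hg38 gave exon length, GC content and overlaps for 56532.

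Counts were filtered with filterByExpr (minimum count 10), scaled by TMM and tested with edgeR 4.0.16 in R 4.3.3 (quasi-likelihood, 1 term per group, all 6 libraries, 3 residual degrees of freedom, two-sided, Benjamini-Hochberg over 18734 genes, threshold 0.05). Each SE is the log2 fold change over the root of its F value. In simulated counts over 18335 genes, 67, 67 and 66 genes were changed by 0.5, 1 and 2 (log2), in hairpin 1 alone. There the hairpin 1 test recovered 52.2% of changes of 0.5 and 85.1% of changes of 1, and 10.9% of its 174 calls were false. Far more genes were called in the data, so these rates describe the simulated setting and need not hold for the tests above. Values per library are given for genes past the threshold with an absolute log2 fold change of at least 0.5, and for HIF subunits and BCAT1. From each further list, the 3 genes with the smallest p and a mean CPM of at least 5 were named; a gene that this rule names is left out. The members, lists and rules were chosen with earlier results of these data known. Replicates differed by more than sampling noise (mean chi-square per gene 8.63, 6.68 and 5.87), so none was a second copy. Alternatives were other size factors (RLE, upper quartile), other filters, DESeq2 1.42.0, a replicate block, only the groups compared, a fold threshold of 1.5, correction for GC content and length, and each library left out.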

Additional observations from a re-analysis of the deposited data

Results flagged for a closer look

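For 6 genes the hairpins were called in opposite directions against the shared control, and the genes were picked from those also called between the hairpins, so the difference between the hairpins describes them and does not test them. Of the 39 members these are 6, where 5.73% of all genes tested met the same condition. The log2 differences were 2.77 for ADM, 2.38 for HIF1A and 0.84 for BNIP3L, which were higher with hairpin 2. They were -0.88 for DDIT4, -0.67 for GPI and -0.31 for HK1, which were lower with hairpin 2. Both comparisons use the same control libraries. After correction for GC content and exon length, the hairpin 2 calls of HIF1A and DDIT4 against control were lost, and PDK1 and VEGFA met the condition instead. Both calls of HK1 against control were lost without some single libraries.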

How the results depend on the processing

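Leaving out each library in turn gave 7 to 9 members higher and 19 to 22 lower with hairpin 1, 6 to 11 higher and 17 to 21 lower with hairpin 2, and 7 to 10 higher and 8 to 12 lower between the hairpins. The count of 12 higher with hairpin 2 fell to 7 without shControl replicate 1, 6 without hairpin 2 replicate 1 and 7 without hairpin 2 replicate 2, where the count over all genes fell from 4486 to 3608, 3338 and 3597. A fold threshold of 1.5 left 1 higher and 6 lower, 2 and 1, and 3 and 3, where all genes gave 863 and 906, 748 and 649, and 958 and 816. The GC content and length correction gave 6 higher with hairpin 2, and with the replicate block also 6. It turned hairpin 2 values of SLC16A1 to -0.03, PDK1 to -0.35 and HIF1A to -0.028, and with the block as well to -0.03, -0.35 and -0.028; the cause was not tested. An uncorrected fit of the same genes was added after seeing the data. Same-numbered libraries did not deviate together (correlations of 0.004, -0.038 and -0.033), so the numbers give no pairing; the replicate block gave 9 higher and 21 lower, 9 and 22, and 9 and 11. DESeq2 gave 9 and 22, 10 and 21, and 11 and 11. Apart from the fold threshold, 26 of 31 hairpin 1 calls, 18 of 34 hairpin 2 calls and 14 of 22 calls between the hairpins were kept under every alternative run. CA9, at 8 to 19 counts per library, is the member most limited by depth.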
